A study of Mus musculus with 14 samples.

Results

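The genes described here are 10 that mark retinal bipolar cells, most of them parts of the cascade that starts at the glutamate receptor mGluR6: Grm6, Trpm1, Nyx, Gpr179, Rgs11, Gng13, Pcp2, Vsx1, Cabp5 and Prkca. They were chosen by name and make up 10 of the 20902 genes in the deposited mouse RNA-seq table, which lists all 10. The table covers 14 libraries. Whole retina of wild-type C57BL/6 mice was sequenced at embryonic day 16.5 (e16.5; 3 libraries, central retina per the labels), at postnatal day 7 (P7; 1 library) and at P60 (1 library). Retinal microglia of Cx3cr1-GFP mice, also C57BL/6, were sequenced at the same ages with 3 libraries each; they were sorted as GFP+ CD45+ CCR2- cells, from pools of 1 to 2 litters at e16.5, 5 to 12 retinas at P7 and 7 to 14 retinas at P60. The labels name no treatment for any of these groups and do not say whether the reporter allele was on one or both copies of Cx3cr1. A low-input amplification kit was used for the microglia, so tissue, sorting, genotype and library preparation cannot be told apart in any comparison of microglia with retina. The e16.5 retina libraries are called whole retina below for short. Where the other libraries took more of the retina, region cannot be told apart from age, or from tissue at e16.5.

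Bipolar cells carry signals from photoreceptors to the inner retina. In darkness, rods and cones release glutamate, which binds mGluR6 on the dendrites of ON bipolar cells; the receptor acts through the G protein Go to keep the cation channel TRPM1 closed, and light, by lowering glutamate, lets the channel open. GPR179 and the leucine-rich protein nyctalopin hold the receptor, channel and RGS proteins together at the dendritic tip, and mutations in GRM6, TRPM1, NYX and GPR179 cause congenital stationary night blindness. Bipolar cells are born late in mouse retinal development, mostly after birth. Prkca encodes a protein kinase that many cell types express.

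Because all 10 genes were higher in whole retina at P60 than at e16.5, the stretches just before the starts of 3 of them are shown. These stretches are taken from the RefSeq promoter table for GRCm38.p6 and written 5′ to 3′ on the gene's strand, 250 bases each. Grm6 is shown because it was the gene with no reads in whole retina at e16.5. Trpm1 and Cabp5 are shown because they held the 2 promoters with the motif TAATCC. It is the core bound by the homeodomain proteins CRX and OTX2 of photoreceptors and bipolar cells. Capitals mark that motif on either strand (on the other strand it reads GGATTA).
Grm6 promoter, chr11:50850435-50850684, plus strand: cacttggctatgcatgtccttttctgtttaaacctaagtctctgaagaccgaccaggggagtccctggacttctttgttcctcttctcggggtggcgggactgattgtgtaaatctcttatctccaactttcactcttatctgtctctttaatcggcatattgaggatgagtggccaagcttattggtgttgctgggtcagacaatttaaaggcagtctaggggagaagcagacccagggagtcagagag
Trpm1 promoter, chr7:64153585-64153834, plus strand: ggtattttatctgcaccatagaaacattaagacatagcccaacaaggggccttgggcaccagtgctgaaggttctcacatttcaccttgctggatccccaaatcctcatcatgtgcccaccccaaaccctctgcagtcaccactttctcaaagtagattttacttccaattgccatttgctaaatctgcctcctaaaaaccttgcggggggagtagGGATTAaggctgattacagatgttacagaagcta
Cabp5 promoter, chr7:13397905-13398154, plus strand: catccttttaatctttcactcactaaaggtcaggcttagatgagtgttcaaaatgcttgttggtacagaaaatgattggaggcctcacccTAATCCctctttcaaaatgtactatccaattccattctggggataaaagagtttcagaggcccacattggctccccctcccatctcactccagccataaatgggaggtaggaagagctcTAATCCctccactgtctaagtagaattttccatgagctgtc
The table held 14 promoters for 9 of the 10 genes, each running from 250 bases before to 50 after a start. TAATCC, searched on both strands, lay in 2 of the 14, against 7.06% of all 32851 promoters in the table. It began 34 bases before the RefSeq start of Trpm1 and 160 and 41 bases before that of Cabp5. The RefSeq start of Cabp5 (13398155) lies 23 bases inside the gene as annotated below, while those of Grm6 and Trpm1 coincide with the annotation. Grm6 had no match in its window. TAATTA, a core of other homeodomain proteins, lay in 1 of the 14 (a Pcp2 promoter) against 5.29% of all, and the E-box CATATG in 0 of the 14 against 3.91%. These matches describe the letters only; no binding was measured.

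Retina libraries held 20469100 to 24361772 counts and microglia libraries 8996298 to 17446905. Levels are given as CPM (counts scaled by library size), scaled over all 14 libraries. The sorted libraries carried 8 microglial marker genes at a summed 8075 to 15451 CPM, against 55.8 to 68.9 CPM in retina. In whole retina the 9 bipolar markers used as a check (Otx2, Isl1, Bhlhe23, Grik1, Scgn, Cabp2, Car8, Sebox and Tmem215) summed to 396 CPM at e16.5, 1065 CPM at P7 and 667 CPM at P60, and 8 rod markers to 13.6, 7293 and 56675 CPM. Otx2 and Isl1, which other cells of the embryonic retina also express, made up most of the e16.5 sum. The label of the 10 genes as bipolar genes therefore rests on whole tissue here, in which fewer cells of a type and less RNA per cell cannot be told apart.

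**Figure D1:**
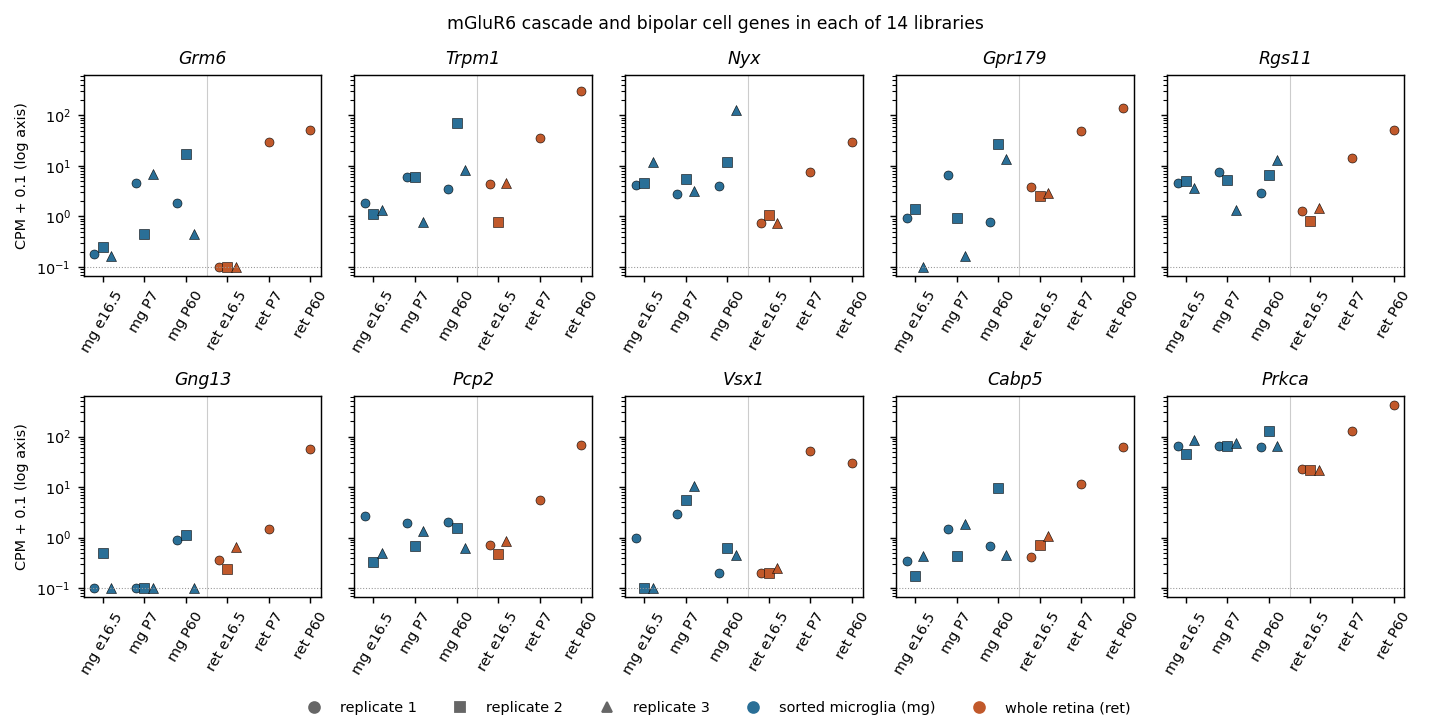
Level of each gene in each of the 14 libraries, as CPM + 0.1 on a log axis; blue symbols are sorted microglia, orange symbols whole retina, and shapes are replicates (the dotted line is a count of 0). Retina levels climbed from e16.5 to P60 in 9 genes and peaked at P7 for Vsx1, while Trpm1 in P60 replicate 2 (70.7 CPM) and Nyx in P60 replicate 3 (126 CPM) stand above the other microglia libraries.

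In whole retina all 10 genes were lowest at e16.5 and far higher by P60. The receptor gene Grm6 (ENSMUSG00000000617, chromosome 11, 50850685 to 50866208, plus strand) had 0 counts in each of the 3 e16.5 libraries, 0 of 63322135 counts in all. It stood at 29.3 CPM at P7 and 51.4 CPM at P60. Against the limit that a count of 0 allows, 3 counts over the 3 libraries, this was at least 598-fold higher at P7 and at least 1050-fold higher at P60. Trpm1 (ENSMUSG00000030523, chromosome 7, 64153835 to 64269775, plus strand), the channel gene, stood at 4.34, 0.664 and 4.52 CPM in the e16.5 replicates, at 35.0 CPM at P7 and at 309 CPM at P60. The second e16.5 library was low for Trpm1, with 14 counts against 86 and 92. Its rise was 10.7-fold to P7 and a further 8.79-fold to P60, with 0.1 CPM added to both values as in all folds in retina below.

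The genes for the proteins that hold the complex at the dendrite followed. Nyx (ENSMUSG00000051228, chromosome X, 13466110 to 13489313, plus strand), which encodes nyctalopin, stood at 0.656, 0.949 and 0.639 CPM at e16.5, 7.37 CPM at P7 and 29.1 CPM at P60. Gpr179 (ENSMUSG00000070337, chromosome 11, 97332109 to 97352077, minus strand), an orphan receptor that anchors the RGS proteins, stood at 3.78, 2.42 and 2.85 CPM at e16.5, 48.7 CPM at P7 and 139 CPM at P60. Both climbed at each step, Nyx by 8.80-fold and then 3.92-fold, and Gpr179 by 15.7-fold and then 2.85-fold.

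Among the G protein side of the cascade, the spread in timing was wide. Rgs11 (ENSMUSG00000024186, chromosome 17, 26202951 to 26211324, plus strand), which speeds the turning off of Go, stood at 1.21, 0.712 and 1.38 CPM at e16.5, 14.4 CPM at P7 and 52.5 CPM at P60. Gng13 (ENSMUSG00000025739, chromosome 17, 25717171 to 25719406, plus strand), a G protein gamma subunit of ON bipolar cells, stood at 0.252, 0.142 and 0.541 CPM at e16.5 and still at 1.39 CPM (39 counts) at P7, and reached 56.7 CPM at P60. Its step from P7 to P60, 38.2-fold, was the largest of the 10 genes, and its step from e16.5 to P7, 3.61-fold, the smallest. Pcp2 (ENSMUSG00000004630, chromosome 8, 3623371 to 3625545, minus strand), a GoLoco protein that binds the Go alpha subunit, stood at 0.605, 0.380 and 0.737 CPM at e16.5, 5.51 CPM at P7 and 68.5 CPM at P60. It too gained more at the later step (12.2-fold) than at the earlier one (8.33-fold).

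The remaining genes mark bipolar cells outside the cascade. Vsx1 (ENSMUSG00000033080, chromosome 2, 150680702 to 150689360, minus strand), a homeodomain factor of cone bipolar cells, had 2, 2 and 3 counts at e16.5, and stood at 51.7 CPM at P7 and 30.2 CPM at P60. It was the only one of the 10 that was lower at P60 than at P7. Cabp5 (ENSMUSG00000005649, chromosome 7, 13398132 to 13408887, plus strand), a calcium-binding protein of rod bipolar and some cone bipolar cells, stood at 0.303, 0.617 and 0.983 CPM at e16.5, 11.6 CPM at P7 and 62.3 CPM at P60. Prkca (ENSMUSG00000050965, chromosome 11, 107933387 to 108343928, minus strand), which encodes protein kinase C alpha, the usual stain for rod bipolar cells, was the only one well above the floor at e16.5, at 22.5, 21.5 and 21.2 CPM, and reached 126 CPM at P7 and 426 CPM at P60.

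By a rule of at least 4-fold with at least 1 CPM at the higher age, 9 of the 10 genes were higher at P7 than at e16.5, where 9.08% of 15035 genes were higher and 4.56% lower. From P7 to P60, 4 of the 10 were higher (Trpm1, Gng13, Pcp2 and Cabp5), against 4.26% of 15361 genes higher and 3.95% lower. From e16.5 to P60 all 10 were higher, against 14.7% of 15366 genes higher and 10.5% lower. None of the 10 was 4-fold lower at any step. The median log2 ratio of the 10 genes was 3.51, 1.91 and 6.48 at the 3 steps, and that of all genes −0.02, −0.09 and −0.06. With 1 library each at P7 and P60 there is no test, and the counts describe these libraries.

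The genes differed in how much of their P60 level was present at P7. Gng13 was at 2.45% of its P60 level (95% exact counting interval 1.73% to 3.37%), Pcp2 at 8.05%, Trpm1 at 11.3% and Cabp5 at 18.6%. Nyx at 25.3%, Rgs11 at 27.4%, Prkca at 29.6% and Gpr179 at 35.1% followed, and the receptor gene Grm6 was at 56.9% (52.0% to 62.3%). Vsx1 stood at 171% (157% to 188%). The intervals of Nyx (21.5% to 29.6%), Rgs11 (24.4% to 30.7%) and Prkca (28.5% to 30.7%) overlapped, so their order was not resolved, while the receptor gene and the channel gene, whose interval ran from 10.6% to 12.1%, were set well apart. The intervals cover counting error only, not the difference between animals.

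**Figure D2:**
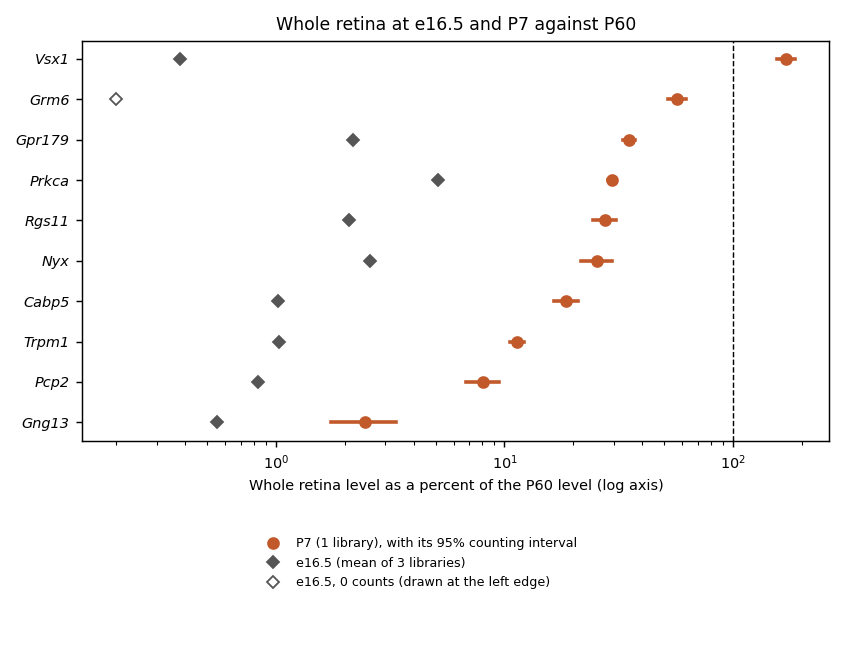
Whole retina level at P7 (orange, 1 library, bar for the 95% counting interval) and at e16.5 (grey, mean of 3 libraries) as a percent of the P60 level, on a log axis, with genes in order of their P7 percent. P7 values run from 2.45% for Gng13 to 171% for Vsx1, and e16.5 values stay at or below the 5.11% of Prkca.

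The other genes of the same pathway were taken from a list of 14 partners. At least 4-fold higher at P7 than at e16.5 were 9 of the 14, at P60 than at P7 5, and at P60 than at e16.5 11; none was 4-fold lower. The median log2 ratios were 3.21, 1.03 and 4.24. The calcium channel subunit Cacna1f (log2 ratio 7.05), the synaptic protein Lrit1 (5.30) and Cacna2d4 (5.27) rose most to P7. Rgs9bp, the membrane anchor of the RGS proteins, which rods also use (3.39), Lrit3, a partner of nyctalopin (2.88), and Gnb5, the beta subunit bound to RGS proteins (2.39), rose most from P7 to P60. Gnb3, the beta subunit that pairs with the Gng13 product, stood at 129% of its P60 level at P7, beside the 2.45% of Gng13. Of 22 other bipolar genes, 13 of the 21 with enough signal were 4-fold higher at P7 than at e16.5 and none lower. From P7 to P60, 7 were higher and 2, the transcription factors Irx5 and Otx2 (log2 ratios −2.44 and −2.17), were lower. Many genes of both lists, the partners included, are expressed in other retinal cells as well, photoreceptors among them. All 8 rod markers were also at least 4-fold higher at P7 than at e16.5.

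Between genes, levels can be set side by side only per length, as the deposited FPKM (fragments scaled by length and library size). At P60 the order in retina was Trpm1 (793 FPKM), Gng13 (503), Pcp2 (214), Prkca (99.7), Cabp5 (72.7), Rgs11 (38.7), Gpr179 (16.0), Grm6 (14.6), Vsx1 (7.71) and Nyx (5.34). At P7 Trpm1 (112 FPKM) led, ahead of Prkca (32.0), Pcp2 (17.7), Cabp5 (12.6), Vsx1 (12.3), Gng13 (11.9), Rgs11 (10.2), Grm6 (8.56), Gpr179 (6.06) and Nyx (1.25). No replicate gives these orders an error.

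The order depends on the lengths used. Dividing each count by its FPKM gives the length that links them, up to a scale set here from 1497 genes with 1 annotated transcript. The sources used here do not say how that length was set; it may be an effective length, shortened by the size of the fragments, rather than a transcript's full length. Nyx and Vsx1, with 1 annotated transcript each, came out at 5329 to 5342 and 3825 to 3835 bases in every library with counts. Gng13 came out at 106 to 130 bases in retina, below its shortest annotated transcript of 347 bases, and Pcp2 at 256 to 314 bases, below 470. For Trpm1, whose annotated transcripts run from 123 to 5711 bases, the length was 220 to 454 bases in the 5 retina libraries. The high FPKM of Trpm1, Gng13 and Pcp2 thus came with short lengths.

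In microglia the Trpm1 length was not like that of retina in most libraries. It was 2234 to 3059 bases in 7 of the 9, and 495 bases in P7 replicate 1 and 671 bases in P60 replicate 2. P60 replicate 2 was also the microglia library with the most Trpm1, 70.7 CPM. That library had the lowest length of the microglia libraries for 5 of the 10 genes (Grm6, Gng13, Pcp2, Cabp5 and Prkca). Pcp2 came out at 967 bases there, at 1093 and 1107 bases in the first replicates of e16.5 and P7, and at 1466 to 1468 bases in the other 6. What these lengths stand for was not tested.

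**Figure D3:**
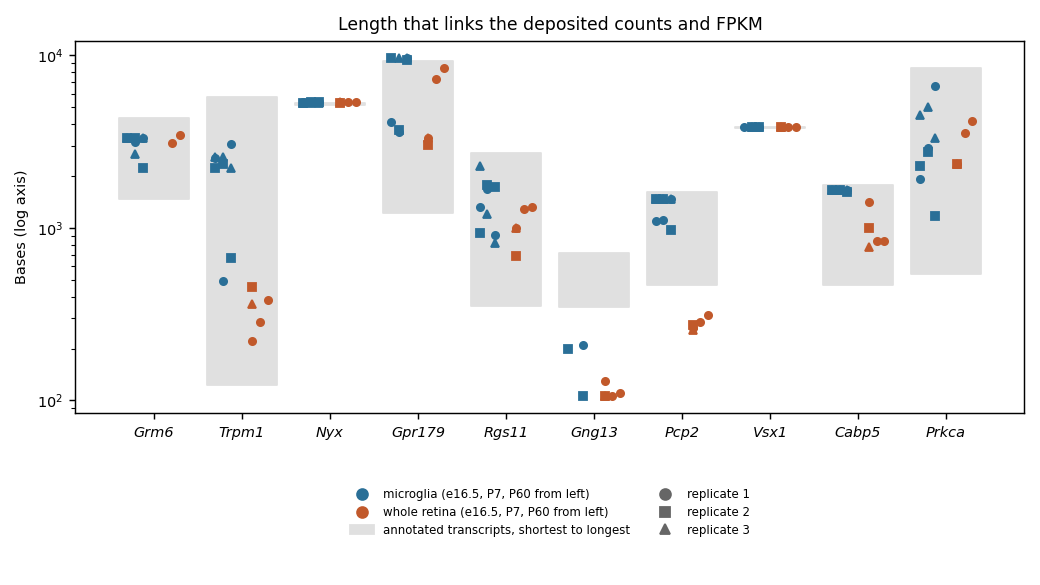
Length that links the deposited counts and FPKM in each library with counts (blue microglia, orange whole retina, log axis), with the annotated range shaded. Retina sits at 220 to 454 bases for Trpm1 and 256 to 314 for Pcp2, microglia mostly at 2234 to 3059 and 1466 to 1468, and Nyx and Vsx1 stay on 1 length.

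At e16.5, before the retinal rise, microglia and whole retina could be tested with 3 libraries each. Nyx, Rgs11 and Prkca were higher in the sorted microglia. Nyx stood at 4.18, 4.52 and 12.1 CPM in microglia and at 0.656, 0.949 and 0.639 CPM in retina. Rgs11 stood at 4.51, 4.83 and 3.64 CPM in microglia and at 1.21, 0.712 and 1.38 CPM in retina. Prkca stood at 65.8, 44.8 and 87.2 CPM in microglia and at 22.5, 21.5 and 21.2 CPM in retina. For each of these genes every microglia library lay above every retina library. The same held for Grm6, and the reverse for Gpr179, at 0.819, 1.30 and 0 CPM in microglia and 3.78, 2.42 and 2.85 CPM in retina. Among the 16140 genes tested, every microglia library lay above every retina library for 31.4% and below for 47.0%.

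With edgeR's quasi-likelihood test the log2 fold change was 3.56 for Nyx (SE 0.64, adjusted p = 0.00263), 2.34 for Rgs11 (SE 0.49, adjusted p = 0.00531) and 1.97 for Prkca (SE 0.29, adjusted p = 0.00115). These are 3 of the 6 genes tested, where 33.1% of 16140 genes were higher in microglia and 30.1% lower; the share is not far from that background. The fold changes lie against a median of −0.13 over all genes, and with scaling by total counts, where that median is −0.51, they were 3.14, 1.96 and 1.58 and still passed. Trpm1 (log2 fold change −0.91, adjusted p = 0.322), Gpr179 (−1.72, adjusted p = 0.191) and Pcp2 (1.23, adjusted p = 0.269) did not pass in edgeR. On the FPKM scale, limma placed Trpm1 (log2 difference −3.39, adjusted p = 0.0208) and Gpr179 (−2.29, adjusted p = 0.00537) lower in microglia. FPKM also depends on the length described above, which differed between these tissues. For Trpm1 it was 220 to 454 bases in e16.5 retina and 2234 to 2591 bases in e16.5 microglia. For Gpr179 it was 3011 to 3338 bases in retina, and 4137 and 9693 bases in the microglia libraries with counts. The part of length in the FPKM differences was not tested. Grm6, Gng13, Vsx1 and Cabp5 were too low for the test; Grm6 had 1, 2 and 1 counts in the microglia libraries and none in retina.

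In the authors' deposited table, Nyx alone of the 10 had an adjusted p below 0.05 in that comparison (0.00217), with Rgs11 at 0.0702 and Prkca at 0.0542. That is 1 of the 9 members with a value, where 10129 of 20132 genes were below 0.05. Rgs11 overlaps Arhgdig on the other strand, and none of the sources used here says whether the counting used the strand, so reads of the pair may not be told apart. Arhgdig stood at 0.135 to 0.383 CPM in the e16.5 microglia libraries and at 15.8 to 18.8 CPM in retina, the opposite order to Rgs11. Gng13, Pcp2 and Prkca likewise overlap Chtf18, Pet100 and Apoh on the other strand, and Trpm1 holds Mir211 within its span. Pet100 reached 53.5 CPM in P7 replicate 3, where Pcp2 was at 1.23 CPM. In P60 replicate 3, however, Pet100 had 0 counts and Pcp2, at 6 counts, was the lowest of that age. Chtf18 had 5, 146 and 0 counts in the P60 microglia libraries, where Gng13 had 8, 12 and 0. The part of reads from the other strand was not tested. Of 14 partner genes, 13 were tested at e16.5, and 1 was higher in microglia (Cacnb2, log2 fold change 3.96, adjusted p = 0.000271) and 6 lower, led by Lrit2 (−4.14), Gnb3 (−3.95) and Lrit1 (−3.78). Of 15 other bipolar genes tested, 1 was higher (Strip2) and 12 lower, with Tmem215 (−9.81), Bhlhe23 (−7.71) and Irx6 (−6.80) the farthest. Tmem215 and Bhlhe23 had 0 counts in all 3 e16.5 microglia libraries, so their values are fits against counts of 0 that give no bound. Irx6 had 0 counts in replicates 1 and 2. The medians of the lists were −1.94 and −3.69, and that of the 6 genes 1.60. The last value rested on few genes. Without e16.5 microglia replicate 1 it was 0.63 and Pcp2 turned to −0.59 (edgeR adjusted p = 0.353). With limma on FPKM it was −0.12 and Pcp2 stood at −1.69 (limma adjusted p = 0.138). The Pcp2 length was 256 to 272 bases in e16.5 retina and 1093 to 1466 bases in e16.5 microglia.

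**Figure D4:**
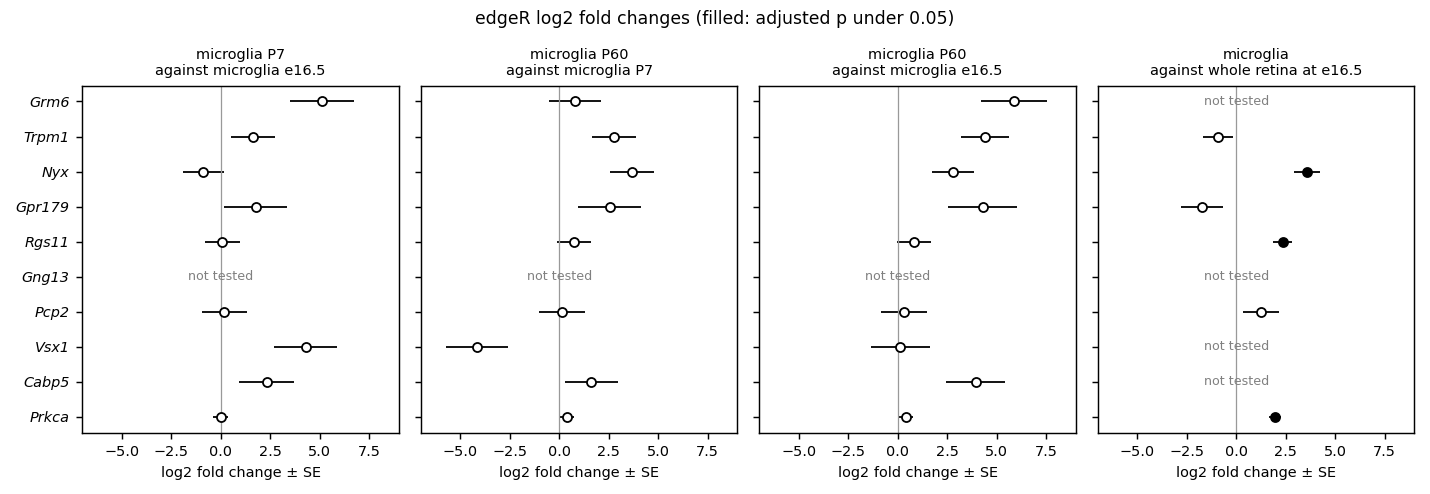
edgeR log2 fold change with its standard error for each gene in the 4 comparisons tested; filled points passed an adjusted p of 0.05. The filled points are Nyx (3.56), Rgs11 (2.34) and Prkca (1.97) in microglia against whole retina at e16.5, and none lies in a comparison of microglial ages.

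Across the ages of microglia, none of the 9 genes tested passed in edgeR; Gng13 was too low. From e16.5 to P7, 0 of 9 passed, where 0.131% of 16019 genes were higher and 0.0687% lower at P7 (1245 genes had an unadjusted p under 0.05). From P7 to P60, 0 of 9 passed, where 0.262% were higher and 1.09% lower (2687 genes unadjusted). From e16.5 to P60, 0 of 9 passed, where 0.861% were higher and 2.5% lower (3222 genes unadjusted). Scaling by total counts moved the later comparisons from 42 genes higher and 175 lower to 61 and 99, and from 138 and 400 to 189 and 301. The median log2 fold change of the 9 genes was 1.63, 0.77 and 2.79, and that of all genes −0.02, 0.07 and 0.06 (0.29 and 0.25 for the later comparisons with total counts). Without P7 replicate 1 the first of these medians was 0.04, and without P60 replicate 2 the others were 0.05 and 1.07; without P60 replicate 3 the last was 0.68. DESeq2 on the same counts called 1, 2 and 4 of the 9 genes, where it called 347 of 16398, 1379 of 14975 and 2079 of 16398 genes. The authors' deposited table has 2, 3 and 3 of the 9 members with a value at an adjusted p below 0.05. They are Grm6 and Vsx1 from e16.5 to P7, Nyx, Gng13 and Vsx1 from P7 to P60, and Grm6, Nyx and Cabp5 from e16.5 to P60. Of all genes with a value, 646 of 18106, 2010 of 17304 and 2786 of 18106 were below 0.05 there.

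Grm6 stood at 0.0819, 0.153 and 0.0673 CPM in microglia at e16.5, 4.46, 0.340 and 6.69 CPM at P7 and 1.76, 16.8 and 0.356 CPM at P60. Every P7 and P60 library was above every e16.5 library, and the postnatal ages overlapped. The log2 fold change over e16.5 was 5.09 at P7 (SE 1.62, unadjusted p = 0.00867, edgeR adjusted p = 0.397) and 5.86 at P60 (SE 1.67, edgeR adjusted p = 0.0802). DESeq2 called both (adjusted p = 0.0322 and 0.00211), and so did the authors' deposited table (0.0188 and 0.000700). From P7 to P60 it was 0.77, and without P60 replicate 2 it turned to −1.81 (edgeR adjusted p = 0.579). Without that library the value from e16.5 to P60 was 3.27 (edgeR adjusted p = 0.271).

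Trpm1 stood at 1.72, 0.997 and 1.21 CPM at e16.5, 5.84, 5.86 and 0.683 CPM at P7, and 3.42, 70.7 and 8.36 CPM at P60. P60 replicate 2 was far above the rest, yet all P60 libraries lay above all e16.5 libraries. The log2 fold change from e16.5 to P60 was 4.40 (SE 1.22, edgeR adjusted p = 0.0731). It was called by DESeq2 (adjusted p = 0.000800) and by edgeR without P60 replicate 1 (4.92, adjusted p = 0.0408), and was 2.18 (adjusted p = 0.325) without P60 replicate 2.

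Nyx stood at 4.18, 4.52 and 12.1 CPM at e16.5, 2.68, 5.52 and 3.14 CPM at P7, and 3.91, 11.9 and 126 CPM at P60. The last value, 1415 counts in P60 replicate 3, was above the 29.1 CPM of whole retina at that age. The log2 fold change from P7 to P60 was 3.68 (SE 1.12, edgeR adjusted p = 0.139; DESeq2 adjusted p = 0.00551) and from e16.5 to P60 2.79 (SE 1.07, edgeR adjusted p = 0.171; DESeq2 adjusted p = 0.0426). In the authors' deposited table the adjusted p values were 0.00357 and 0.0284. Without P60 replicate 3 the fold changes were 1.09 (edgeR adjusted p = 0.596) and 0.20 (edgeR adjusted p = 0.928).

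Gpr179 stood at 0.819, 1.30 and 0 CPM at e16.5, 6.41, 0.849 and 0.0683 CPM at P7, and 0.685, 27.2 and 13.3 CPM at P60. The ages overlapped in every comparison. Its log2 fold change from e16.5 to P60 was 4.29 (SE 1.76, edgeR adjusted p = 0.201), called by DESeq2 (adjusted p = 0.0423). Rgs11 stayed within 1.23 to 13.0 CPM and Pcp2 within 0.230 to 2.54 CPM over the 9 libraries, with ages overlapping. Gng13 had 5 counts in e16.5 replicate 2, 8 and 12 counts in P60 replicates 1 and 2, and 0 in the other 6 microglia libraries. The authors' deposited table gives it an adjusted p of 0.0374 from P7 to P60.

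Vsx1 was the member whose microglial and retinal levels both peaked at P7. In microglia it stood at 0.901, 0 and 0 CPM at e16.5, 2.84, 5.43 and 10.2 CPM at P7, and 0.0978, 0.515 and 0.356 CPM at P60. The P7 libraries lay above all others. Its log2 fold change was 4.30 from e16.5 to P7 (SE 1.60, edgeR adjusted p = 0.513) and −4.16 from P7 to P60 (SE 1.59, edgeR adjusted p = 0.215; DESeq2 adjusted p = 0.0495). Without e16.5 replicate 1, the only e16.5 library with Vsx1 counts, the first value was 9.25 (edgeR adjusted p = 0.197), a fit against counts of 0 that gives no bound. In the authors' deposited table the adjusted p values were 0.00758 and 0.00612. Cabp5 stood at 0.246, 0.0767 and 0.337 CPM at e16.5, 1.38, 0.340 and 1.77 CPM at P7, and 0.587, 9.45 and 0.356 CPM at P60, with a log2 fold change of 3.94 from e16.5 to P60 (SE 1.48, edgeR adjusted p = 0.164; 0.00996 in the authors' deposited table). Without P60 replicate 2 that value was 1.07 (edgeR adjusted p = 0.734). From P7 to P60 it was 1.61, and −1.25 without the same library.

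Prkca had at least 584 counts in every microglia library, more than any other of the 10 genes in all but P60 replicate 3, where Nyx had more. It stood at 65.8, 44.8 and 87.2 CPM at e16.5, 64.0, 63.6 and 73.8 CPM at P7, and 62.9, 127 and 65.9 CPM at P60. P60 replicate 2 was the highest, and the ages overlapped. The log2 fold change was 0.01 from e16.5 to P7 (SE 0.38; −0.02 with total counts) and 0.39 from e16.5 to P60 (SE 0.38, edgeR adjusted p = 0.593), which bounds it more tightly than any other of the 10 genes. Of the 9 genes tested, those whose ages did not overlap were 3 higher at P7 than e16.5 (Grm6, Vsx1, Cabp5), 1 lower at P60 than P7 (Vsx1) and 3 higher at P60 than e16.5 (Grm6, Trpm1, Cabp5). Of all 16019 genes tested, 7.52%, 12.9% and 13.2% did not overlap in those directions, and 6.52%, 11.1% and 13.0% in the opposite ones, where the members' count was 0. The 1 of 9 from P7 to P60 is near the 12.9% of all genes. For Cabp5 the separation was by a hair and from few reads. Its lowest P7 library (replicate 2) and lowest P60 library (replicate 3) held 4 counts each, and its highest e16.5 library (replicate 3) 5.

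Of 14 partner genes tested across microglial ages, 1 passed in edgeR: Rgs9bp, from e16.5 to P60 (log2 fold change 6.33, SE 1.35, adjusted p = 0.0271). It stood at 1.88, 0.997 and 1.82 CPM at e16.5 and at 65.3, 306 and 4.80 CPM at P60. Of 13 other bipolar genes, Slc17a7, a vesicular glutamate transporter that photoreceptors also use, was higher at P60 than at e16.5 (8.94, adjusted p = 0.0162) and the transcription factor gene Isl1 lower (−5.46, adjusted p = 0.0292). No gene of these lists passed in the other 2 comparisons of ages, and the list medians were 1.24, 0.72 and 2.39 for the partners and 1.19, −0.70 and 1.72 for the others.

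Set against whole retina of the same age, the microglia carried a small and uneven share of these transcripts after birth. At P7 the median of the 10 genes was 14.7% ± 3.62 of the retina level (SD, n = 3 libraries), and at P60 7.15% ± 8.86, with 2.12%, 17.4% and 1.94% in the 3 libraries; without the second library it was 2.03%. The median over all genes was 50.4% to 59.1% at these ages. At e16.5 only Trpm1, Gpr179, Rgs11 and Prkca reached 1 CPM in retina, and their median was 162% ± 32.9. That median lies between 2 unlike pairs. Trpm1 (31.4% to 54.2%) and Gpr179 (0% to 43.2%) were below retina, and Rgs11 (331% to 439%) and Prkca (206% to 401%) above it. The median over all genes was 48.9% to 51.8% at e16.5.

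Rod and bipolar markers were present beside them. At P7 the 8 rod markers stood at a median of 3.58% ± 0.338 of retina and the 9 bipolar markers at 6.27% ± 0.295; at P60 they stood at 3.17% ± 3.53 and 0.606% ± 0.415. In the P60 libraries the rod medians were 1.52%, 7.23% and 0.771%, and the bipolar medians 0.737%, 0.940% and 0.142%. P60 replicate 2 was highest for 7 of the 10 genes and for both marker lists, though the bipolar medians of replicates 1 and 2 lay close. The share of all genes highest in replicate 2 was not counted, so the 7 of 10 has no background beside it. Replicate 2 had a summed rod level of 4109 CPM, against 1402 and 682 CPM in replicates 1 and 3. Its bipolar sum was 43.1 CPM, against 13.1 and 6.14 CPM. Of the 9 bipolar markers, 3 and 4 were at 0 in replicates 1 and 3, and 2 (Cabp2 and Scgn) in replicate 2. The monocyte gene Plac8 was at 26.3 CPM in that library and at 1.08 and 0 CPM in the others. It is 1 of 4 monocyte markers, whose sum was 50.8 CPM in replicate 2 and 14.7 and 7.74 CPM in replicates 1 and 3. The part of these in the results for the 10 genes was not tested.

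The genes fell into different places against that background. Prkca stood at 50.8%, 50.5% and 58.6% of retina at P7 and at 14.8%, 29.8% and 15.5% at P60. Nyx stood at 36.3%, 74.9% and 42.6% at P7 and at 13.4%, 40.7% and 432% at P60, so that P60 replicate 3, lowest for the rod and bipolar markers, was highest for Nyx. Rgs11 stood at 51.3%, 36.6% and 8.55% at P7 and at 5.41%, 12.6% and 24.8% at P60, again highest in that replicate. Both were higher than the rod median in every P7 and P60 library. The median of the listed cone markers lay higher than that of rods. Nyx exceeded it in each of these libraries. Rgs11 was below it in P7 replicate 3 (cone median 11.4%) and in P60 replicate 2 (23.7%).

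The receptor, the channel and Gpr179 also differed widely between libraries. Grm6 stood at 15.2%, 1.16% and 22.8% at P7 and at 3.42%, 32.7% and 0.692% at P60. Trpm1 stood at 16.7%, 16.7% and 1.95% at P7 and at 1.11%, 22.9% and 2.71% at P60. Gpr179 stood at 13.1%, 1.74% and 0.140% at P7 and at 0.492%, 19.6% and 9.60% at P60. In P60 replicate 2 all 3 exceeded the rod median of 7.23%, but only Grm6 exceeded the cone median of 23.7%. At P7 a different library was lowest for Grm6 (replicate 2) than for Trpm1 and Gpr179 (replicate 3). These lows rested on few reads, with 4 counts of Grm6, 10 of Trpm1 and 1 of Gpr179. The 3 genes did not rise and fall together over the P7 libraries, while at P60 all 3 were highest in replicate 2.

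Cabp5 stood at 11.9%, 2.93% and 15.3% at P7 and at 0.942%, 15.2% and 0.571% at P60. Pcp2 stood at 33.8%, 10.8% and 22.3% at P7 and at 2.85%, 2.13% and 0.779% at P60. Vsx1 stood at 5.49%, 10.5% and 19.8% at P7 and at 0.324%, 1.71% and 1.18% at P60. For Pcp2 and Vsx1 every P60 value lay below every P7 value, while those of Cabp5 overlapped. Gng13 had no counts in microglia at P7 and stood at 1.38%, 1.82% and 0% of retina at P60.

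**Figure D5:**
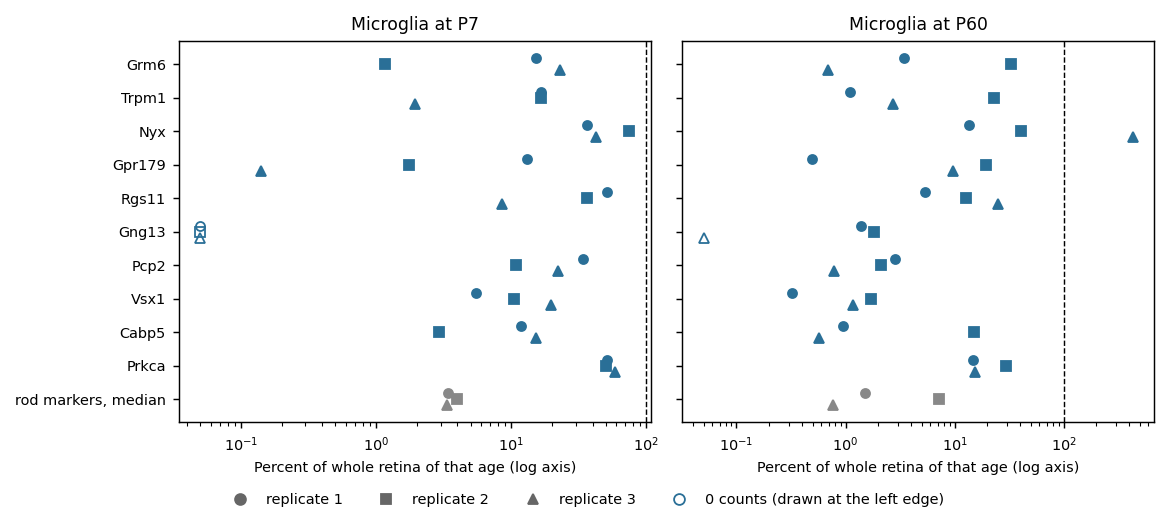
Level of each gene in each microglia library as a percent of whole retina of the same age (log axis; shapes are replicates, open symbols counts of 0), with the median of 8 rod markers in grey. At P60 the squares of replicate 2 lie to the right for 7 of the 10 genes and for rods, and the triangle of Nyx lies at 432%.

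The genes whose pattern over the 14 libraries was most like that of Grm6 were sought among 16157 genes of at least 5 CPM in a library, by the mean absolute difference of log2(CPM + 0.1) after centring each gene on its own mean. The nearest were the rod genes Gngt1 (mean difference 0.905) and Pde6g (0.908), then Fabp12 (0.917), Nxnl1 (0.981) and Rgs9bp (0.990). Of the other members, Cabp5 ranked 28, Vsx1 59, Pcp2 68 and Trpm1 73. Prkca (418), Gpr179 (423), Gng13 (516), Rgs11 (582) and Nyx (1693) were farther off. The libraries share tissue and age, which this measure does not separate.

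In the authors' deposited table, the postnatal comparisons of microglia with retina gave an adjusted p below 0.05 to Gng13, Pcp2 and Cabp5 at P7 and to these and Vsx1 at P60, with the log2 fold change lowest for Pcp2 at P60 (−7.56) and Gng13 (−6.73). These are 3 and 4 of the 9 members with a value. Of all genes with a value, 5571 of 17703 at P7 and 6896 of 18106 at P60 were below 0.05. The members' shares are not far from that background. Each comparison rests on 1 retina library. Grm6, Nyx, Gpr179, Rgs11 and Prkca did not fall below 0.05 in either, and Trpm1 has no adjusted p in that table.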

How the data were processed

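The authors' deposited table gives, per the file headers, whole-number counts and FPKM of each library and the results of the authors' own comparisons. The submitters' processing notes list Salmon 0.9.1, DESeq2 1.20.0 and GRCm38.p6 without their roles, so the deposited counts were taken as estimated counts. The FPKM values deposited by the authors were used for levels per length, for a length check and as an alternative scale. Adjusted p-values of the authors' comparisons were only quoted, as were the deposited log2 ratios. Strand use and read filters are not given in the sources used here.

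Rows were found by gene symbol, and all samples were grouped by their labels. Counts were tested with edgeR 4.0.16 (R 4.3.3; quasi-likelihood F test, TMM, filterByExpr, Benjamini-Hochberg over all genes tested, threshold 0.05): the 9 microglia libraries in 1 fit of 16019 genes, and the 6 libraries of e16.5 in another of 16140 genes. Standard errors follow from the F statistics. Scripts were tested on simulated data. The single whole retina libraries of P7 and P60 entered no test, and ratios between retinal ages have 0.1 CPM added. CPM uses TMM factors over 14 libraries. Alternatives were DESeq2 1.42.0, limma 3.58.1 on log2(FPKM + 0.1), other scalings and filters, a replicate block and leaving out each library. Annotation is of GRCm38 (20775 of 20902 genes found).

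The 10 genes and all lists were chosen with earlier results of these data known. A gene of the lists is not reported here. All 10 genes are always given; of each list, up to 3 genes past the threshold in each direction by size of change, or the 2 most abundant where none passed; and the 5 genes nearest to Grm6. Gnb3, Plac8, Arhgdig, Pet100 and Chtf18 were named after their values were seen. The labels call the microglia libraries of an age biological replicates; for e16.5 retina they give only numbers, so p-values there measure a spread that may be technical. Intervals cover counting error only.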

Additional observations from a re-analysis of the deposited data

How the results depend on the processing

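For the 13 fold changes of single genes called or with an unadjusted p under 0.05, none of 180 recomputed values changed sign and 8 newly passed the threshold; all values of Nyx, Rgs11 and Prkca in microglia against whole retina at e16.5 passed. Of the other fold changes of the 10 genes, none called, 28 recomputed values changed sign. The number of genes called from e16.5 to P7 (32) became 347 with DESeq2, 3 with limma on FPKM and 143 with the 2 groups alone, and ran from 0 (without P7 replicate 1, with 1115 genes at an unadjusted p under 0.05) to 61 without single libraries. From P7 to P60 (217) it became 1379 with DESeq2, 39 with limma, 82 with the 2 groups alone and 41 to 217 without single libraries. From e16.5 to P60 (538) it became 2079, 312, 227 and 174 to 530. Of the 10 genes, DESeq2 called 1, 2 and 4 in these comparisons against 0 in edgeR, and leaving out a library from the last gave 0 to 1. At e16.5, limma called 5 of the 6 members tested against 3 in edgeR, where limma called 4549 of 16140 genes higher and 6077 lower. With 1 CPM added, the genes 4-fold higher in whole retina fell to 697 at P7 over e16.5, 388 at P60 over P7 and 1432 at P60 over e16.5. The median percent of retina at e16.5, over the 4 genes of at least 1 CPM there, became 125% with FPKM; a minimum of 5 CPM left Prkca alone, at 303%. The median of the 10 genes at P7 became 8.97% with FPKM. The causes were not tested. Replicate numbers recur between groups, but same-numbered libraries deviated together only weakly (correlations of −0.008 to 0.251), and not every pair exceeded 0.1 in any comparison, so the numbers were not used as a pairing. With a replicate block the genes called were 44, 367, 757 and 9475 in the 4 comparisons, and the members called were 0, 0, 0 and 3; 6, 6, 5 and 3 of 6 libraries correlated best with their own number, which for the microglial ages is a hint of pairing from the data and not from the design. Low counts limit Gng13, Pcp2 and prenatal Grm6, Vsx1 and Cabp5 most.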
